A study of Schizosaccharomyces pombe with 24 samples.

Results

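The genes described here encode the tRNA modification enzymes of the fission yeast Schizosaccharomyces pombe. They were taken as the protein-coding genes whose symbol is trm, pus, dus, tad, elp, tit or tyw followed by a number. The rule used names only and no measured value, and it gave 40 genes of 5126 protein-coding genes in each of 7 tables. Enzymes that carry other names, such as gcd10 or ats1, fall outside it and are described after the members.

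Poly(A)+ RNA was sequenced from 24 cultures in 8 groups of 3 biological replicates. The wild-type group (WT, strain AGP72, genotype h-) was sampled at time 0 only. The pho7Δ strain (AGP83, h- with pho7 replaced by natMX) was sampled at time 0 and at 6 times without phosphate, in steps of 4 h up to 12 h and in steps of 12 h from there to 48 h. Both strains also carry leu1-32, ura4-D18, his3-D1 and an ade6 allele. Pho7 is the transcription factor that turns on the phosphate acquisition genes of fission yeast. Time 0 cells grew in the rich medium YES, whereas all later cells grew in the defined medium ePMGT without phosphate, so that the change of medium and the loss of phosphate cannot be told apart. No starved WT group was used here, so the strain and the starvation cannot be told apart at the later times either.

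The files used here give 1 value per gene and group, the authors' mean normalized read count over the replicates, called the average below. They give no value per library. No SD can be attached to an average, no difference below has a replicate check, and the files give no depth per library. A gene is called lower or higher where 2 averages differ 2-fold or more and the larger is at least 100. That is a rule of size and not a test, and the words lower and higher are used below without a claim of significance. A scale for small differences comes from the late course, where averages moved least. Between 36 and 48 h the absolute log2 difference had a median of 0.07 and a 95th percentile of 0.23 over 4882 protein-coding genes, and a median of 0.04 over the 40 members. Noise and real drift cannot be told apart in these values.

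tRNAs carry more chemical modifications than any other RNA. Marks in the anticodon loop, such as inosine, isopentenyladenosine, wybutosine and the Elongator-dependent uridine modifications, tune decoding, while methyl groups, pseudouridine and dihydrouridine in the body of the molecule tune its folding and stability. Many of the enzymes work as a catalytic protein with a partner that is needed for activity or for the choice of site. In yeasts, genes for tRNA and ribosome production are often expressed together with growth.

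The deleted gene was examined first. The pho7 average was 3147 in WT and 833 in pho7Δ at time 0, or 26.5% of WT. In the later pho7Δ groups it lay between 334, or 10.6% of WT, and 598. All 40 modification genes were well above the minimum in every group. The lowest average of any member was 274, for trm13 in pho7Δ at 48 h, and the highest was 7271, for trm7 in pho7Δ at 24 h.

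At time 0, before starvation, 1 of 40 members was called lower in pho7Δ than in WT (tit1) and 2 were called higher (dus2 and elp5), against 7.40% lower and 7.88% higher of all 4862 protein-coding genes measured. The median log2 ratio of the members was 0.06, beside 0.10 for all genes. The 2 higher calls sit at the limit, with log2 ratios of 1.03 for dus2 and 1.02 for elp5. Neither is called once the averages are scaled to equal sums or centred on the median gene.

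After transfer to medium without phosphate, more members lay below WT. At 4 h, 6 members were called lower and 2 higher, against 10.6% lower and 14.7% higher of all genes. At 8 h the counts were 12 lower and 4 higher, that is 30% and 10% of the members, against 15.1% and 16.6% of all genes. The picture then hardly moved. At 12 h the counts were 11 and 5, beside 14.4% and 17.3% of all genes. At 24 h they were 12 and 5, beside 16.9% and 17.9%. At 36 h they were again 12 and 5, beside 17.3% and 17.9%, and at 48 h 11 and 5, beside 17.4% and 17.7%. From 8 h on, the share of members called lower was thus 27.5% or 30%, above the share of all genes at each time, whereas the share called higher was 10% or 12.5% and below it. The 6 comparisons share the WT average and are not independent of each other.

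**Figure D1:**
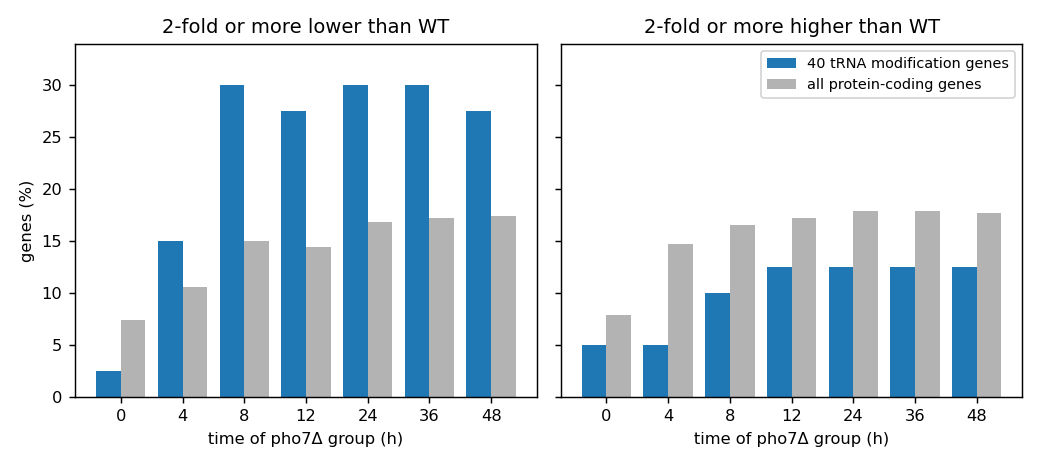
Percentage of genes called 2-fold or more lower (left) or higher (right) than WT at time 0 in each pho7Δ group, for the 40 tRNA modification genes and for all protein-coding genes with an average of at least 100 in either group. From 8 h on, 27.5% or 30% of the modification genes were lower, while 14.4% to 17.4% of all genes were.

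The median log2 ratio of the members to WT was -0.41 at 4 h, -0.59 at 8 h and -0.55 at 48 h. The median of all protein-coding genes was 0.05, -0.01 and -0.08 at these times. By the criterion of 2 or more consecutive starved times, 13 members were lower than WT and 5 were higher, against 19.8% and 20.5% of 4939 protein-coding genes. The other 22 members were called at no starved time. The 13 lower genes were elp2, elp6, pus1, pus2, pus9, tad3, tit1, trm2, trm10, trm12, trm72, trm141 and trm402. The 5 higher genes were dus4, elp5, tad2, trm7 and tyw3.

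**Figure D2:**
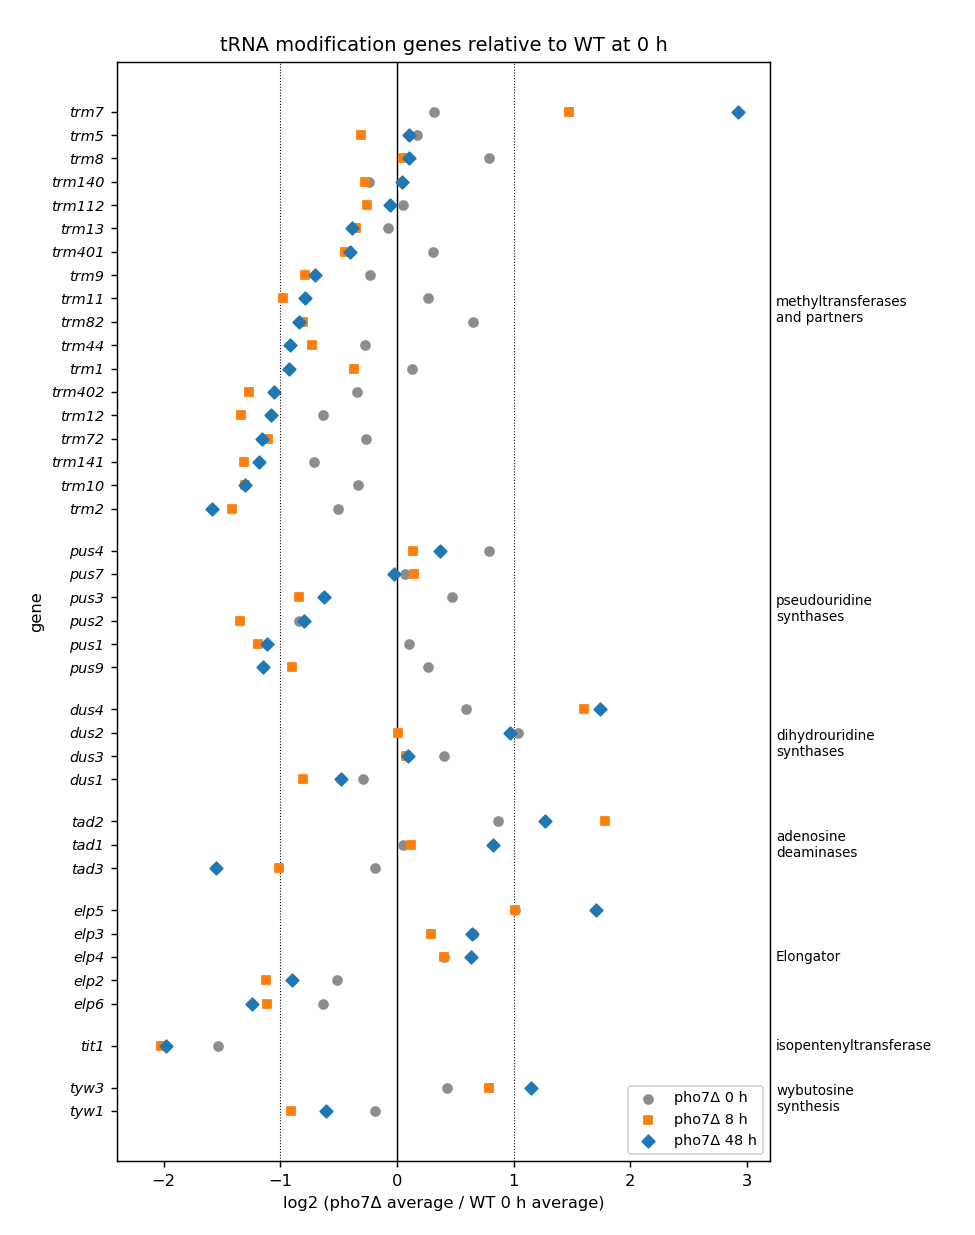
log2 ratio of the pho7Δ average to the WT average for 39 of the 40 genes at 0 h (circles), 8 h (squares) and 48 h (diamonds), grouped by enzyme class, with dotted lines at 2-fold. Most methyltransferase genes lie left of 0 at 8 and 48 h, and trm7 lies far to the right at 48 h with a log2 ratio of 2.93.

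With pho7Δ at time 0 as the reference, which holds the strain constant, fewer genes passed the limit. At 4 h, 4 members were lower (dus2, pus3, trm11 and trm82) and none was higher, against 4.00% and 5.17% of all genes. At 8 h, 6 were lower and 2 higher, against 8.36% and 9.95%. At 48 h, 8 were lower and 2 higher, against 13.3% and 12.4%. The median log2 ratio of the members was -0.47 at 4 h, -0.51 at 8 h and -0.42 at 48 h, while that of all genes was 0.01, -0.05 and -0.12. Of the 40 members, 12 (30%) were called at some starved time against this reference and 28 at none, against 35.1% of all genes called at some time. The 28 include elp2, elp6, pus2, tit1, trm12, trm72, trm141 and trm402, which were lower than WT at consecutive times. They also include elp5, tad2 and tyw3, which were higher than WT. The 2 higher genes at 8 and 48 h were trm7 and dus4. The 8 lower genes at 48 h were pus1, pus3, pus9, tad3, trm1, trm2, trm11 and trm82. Once the averages were scaled to equal sums, or the ratios centred on the median gene, 4 of these were still called, namely pus1, pus9, tad3 and trm82.

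The 18 trm genes, methyltransferases and their partner proteins, included 6 of the lower genes and 1 of the higher genes. Over all genes, 19.8% were lower and 20.5% higher at 2 or more consecutive starved times. Their median log2 ratio to WT was -0.15 at time 0, -0.76 at 8 h and -0.81 at 48 h. Trm2, which makes the ribothymidine of the T loop, had one of the lowest transcripts by ratio. The trm2 average was 1872 in WT and 1319 in pho7Δ at time 0, then 952, 704, 590, 532, 557 and 624 at the 6 starved times in order, from 4 to 48 h. The same order is used below. It was 3.52-fold below WT at 24 h, the lowest point, and 2.48-fold below its own time 0 level.

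Trm10 methylates a guanosine near the start of the tRNA body. The trm10 average was 1421 in WT and 1128 in pho7Δ at time 0, followed by 699, 575, 636, 536, 514 and 575 over the course. Trm12 performs a step of wybutosine synthesis in the anticodon loop, and its average went from 2588 in WT and 1665 at time 0 to 1106 at 4 h, 1027 at 8 h, 1133 at 12 h, 1196 at 24 h, 1207 at 36 h and 1225 at 48 h. Both genes were below the WT value at every starved time by 2.03-fold or more. Against its own time 0 level trm12 was not called at any starved time. For trm10 the low plateau was entered between 4 and 8 h, and trm12 stayed at about its 4 h level.

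Trm141 and Trm140 both make methylcytidine in the anticodon loop, Trm141 on serine tRNAs. The trm141 average was 1886 in WT, 1150 at time 0 and 812, 760, 833, 899, 852 and 831 afterwards, and so lower than WT at all 6 starved times. Against its own time 0 level it was called at none of these times. The trm140 average stayed near its starting level, with 654 in WT, 555 at time 0 and then 500, 543, 552, 642, 659 and 673. The per-length ratio of trm141 to trm140, in which each average is divided by transcript length, was 4.26 in WT, 3.06 at time 0, 2.07 at 8 h and 1.82 at 48 h. trm140 lies opposite other genes over 93.0% of its exon length, of which SPBC21C3.06 covers 47.0% and an antisense RNA 46.0%.

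The pair trm401 and trm402 encodes predicted cytosine-5 methyltransferases. The trm402 average was 2841 in WT, 2239 at time 0 and 1427, 1180, 1274, 1367, 1327 and 1367 over the course, which was 2.41-fold below WT at 8 h and 2.08-fold below it at 48 h. The trm401 average was 1654 in WT, 2045 at time 0 and 1433, 1217, 1275, 1298, 1226 and 1255 over the course, and it was not called at any time. The per-length ratio of trm402 to trm401 was 1.56 in WT. Within pho7Δ it was 0.99 at time 0, 0.90, 0.88 and 0.90 at 4, 8 and 12 h, and 0.95, 0.98 and 0.99 at the later times. trm402 is covered over 94.6% of its length by rad4 on the other strand, whose averages lay between 897 and 1104 in all groups.

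The steepest course in the family belonged to trm7. Trm7 adds ribose methyl groups in the anticodon loop, and in budding yeast it acts with one partner protein for each of its sites. The trm7 average was 909 in WT and 1137 in pho7Δ at time 0, then 1597, 2522, 3930, 7271, 6983 and 6915 over the course. Each average up to 24 h was above the one before it, and the last 3 were close together. The value at 24 h was 8.00-fold above WT and 6.40-fold above time 0, the widest range of any member over the pho7Δ groups. Per kb of transcript, trm7 ranked 20 of 40 in WT and 1 of 40 at 48 h. It overlaps no gene on the other strand.

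Both partner genes went the other way. The average of trm72, the 2′-O-methylase subunit, was 3505 in WT, 2914 at time 0 and 2008, 1631, 1657, 1591, 1566 and 1572 over the course. That of rtt10, a WD repeat protein of the human WDR6 family and outside the naming rule, was 2513 in WT, 1294 at time 0 and 933, 703, 662, 639, 646 and 738 afterwards. The trm72 average was thus 2.23-fold below WT at 48 h, and the rtt10 average had a log2 ratio of -1.77. Per length, trm7 stood at 1.14 times trm72 in WT, 1.71 times at time 0, 6.78 times at 8 h and 19.3 times at 48 h. Against rtt10 the same ratio was 1.08 in WT, 2.63 at time 0 and 28.1 at 48 h.

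**Figure D3:**
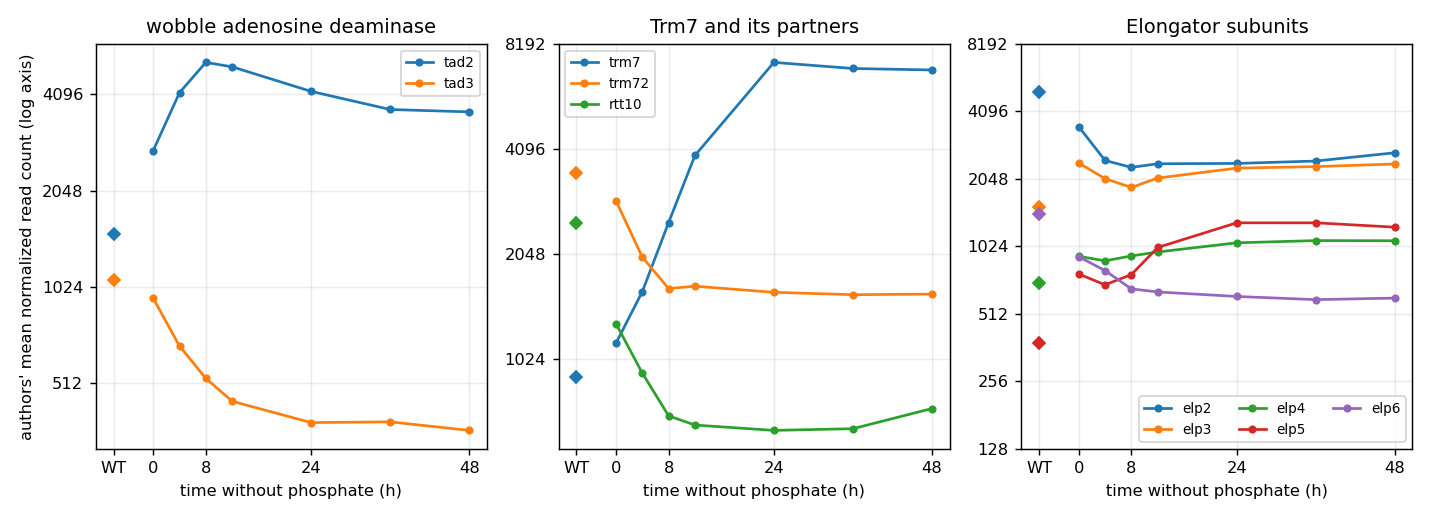
Authors' mean normalized read counts (log axis) for subunits of 3 enzymes, in WT at time 0 (diamonds) and along the pho7Δ course (lines). The tad2 and trm7 averages are above and those of their partners below their WT levels in every pho7Δ group, time 0 included. In the same groups elp5 is above WT while elp2 and elp6 are below.

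Trm8 and Trm82 form the enzyme that makes 7-methylguanosine, Trm8 as the catalyst and Trm82 as the WD repeat partner. The trm8 average was 919 in WT and 1585 at time 0, and lay between 949 and 1152 at the starved times. The trm82 average was 1143 in WT and 1790 at time 0, and then 842, 653, 694, 669, 606 and 637. Neither gene was called against WT. Against its own time 0 level trm82 was lower at all 6 starved times, by 2.13-fold to 2.95-fold, while trm8 was 1.38-fold to 1.67-fold lower.

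Trm112 is the small partner that activates several methyltransferases, among them Trm9, which completes a wobble uridine modification, and Trm11, which methylates a guanosine of the D arm. The trm112 average was 816 in WT and 843 at time 0, dipped to 498 at 4 h and was 682, 926, 950, 865 and 783 afterwards. The trm11 average was 1556 in WT and 1868 at time 0 and then 887, 791, 883, 803, 864 and 902, lower than its time 0 level at all 6 times but just short of 2-fold below WT, with 1.97-fold at 8 h. The trm9 average moved less, from 941 in WT and 800 at time 0 to between 546 and 651. Per length, trm11 was 1.15 times trm112 at time 0 and 0.60 times at 48 h. trm112 is covered over 80.8% of its length by an antisense RNA, the average of which was 70.4 in WT and 502 at 48 h.

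The remaining methyltransferases were called at no starved time against WT. Trm1, which dimethylates a guanosine, drifted down through the whole course, from 1606 in WT and 1758 at time 0 to 847 at 48 h, when it was 2.08-fold below time 0. Trm44, which methylates serine tRNAs, went from 3342 in WT to 1773 at 48 h, or 1.88-fold lower. Trm13 had averages between 274 and 359 in all groups. Trm5, which makes the methylguanosine beside the anticodon, had averages between 689 and 976.

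The 6 pseudouridine synthase genes included 3 of the lower genes, beside 19.8% of all genes, and the courses of these 3 differed in time. Pus1, the enzyme for several sites in tRNA and for U2 snRNA, had an average of 1405 in WT, 1510 at time 0, 878 at 4 h, 616 at 8 h, 669 at 12 h, 648 at 24 h, 656 at 36 h and 649 at 48 h. Pus9 went down more slowly, from 1500 in WT and 1809 at time 0 to 1191, 804, 789, 715, 694 and 677, and it was called lower than WT from 24 h on. Both were above WT at time 0 by less than 2-fold and below it at every starved time.

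Pus2, a predicted relative of Pus1, was low early. Its average was 1100 in WT, 613 at time 0, 417 at 4 h and 432 at 8 h, where it was called lower than WT, and 560, 656, 629 and 632 afterwards, where it was not. Of the other 3, pus3 was lower than its time 0 level at all 6 starved times, with 1320 in WT, 1835 at time 0, 739 at 8 h and 854 at 48 h. The pus4 average, for the enzyme that makes the pseudouridine of the T loop, was 1550 in WT and 2673 at time 0 and lay between 1701 and 2394 later. The flattest member of the family was pus7. Its average was 2205 in WT, 2311 at time 0 and 2397, 2442, 2424, 2262, 2339 and 2171 over the course, a range of 1.13-fold over the pho7Δ groups. Over the same groups the average of med14, which lies opposite 58.5% of pus7, went from 1917 to 853. pus9 lies entirely opposite SPNCRNA.636, whose averages were between 463 and 616 in all groups.

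Among the 4 dihydrouridine synthase genes, dus4 stood apart. Dihydrouridine is the modification that gives the D arm its name. The dus4 average was 470 in WT and 706 at time 0 and then 1281, 1425, 1412, 1502, 1538 and 1567, so that it was called higher than WT at all 6 starved times and was 3.34-fold above it at 48 h. dus4 lies opposite the ncRNA SPNCRNA.1212 over 48.2% and opposite ekc1 over 17.4% of its length. The average of SPNCRNA.1212 was 206 in WT, 213 at time 0 and between 502 and 571 later.

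The dus2 average showed a dip and a return. It was 542 in WT, 1110 at time 0, 510 at 4 h, 545 at 8 h, 807 at 12 h and 1048, 1060 and 1060 at 24, 36 and 48 h. The step from 0 to 4 h, of 2.17-fold, was the largest of any member in that interval, and the late level was within 1.06-fold of the time 0 level. The dus1 average was 1785 in WT and between 1021 and 1459 in pho7Δ, and the dus3 average was 3003 in WT and between 3161 and 3965 in pho7Δ.

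Tad2 and Tad3 together form the essential deaminase that turns the wobble adenosine into inosine, and Tad1 deaminates an adenosine beside the anticodon. The tad2 average was 1498 in WT, 2729 at time 0 and 4139, 5146, 4984, 4178, 3668 and 3606 over the course. The tad3 average was 1074 in WT, 945 at time 0 and 670, 531, 451, 387, 389 and 366. The tad2 average was thus highest at 8 h, 3.44-fold above WT, and the tad3 average was lowest at 48 h, 2.94-fold below WT. The per-length ratio of tad2 to tad3 was 1.31 in WT, 2.71 at time 0, 9.09 at 8 h and 9.26 at 48 h. The tad1 average was 718 in WT, 743 at time 0 and 1269 at 48 h, which is 1.77-fold above WT and was not called. The gene nrm1, which covers 81.0% of tad1 on the other strand, went from 1721 in WT and 2389 at time 0 to 821 at 48 h. By level per kb, tad2 ranked 2 of 40 and tad3 39 of 40 at 48 h.

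Elongator starts the synthesis of the wobble uridine side chain. Elp3 is its catalytic subunit, Elp2 belongs to the scaffold that binds it, and Elp4, Elp5 and Elp6 form an accessory ring. The subunit genes did not move together. At 2 or more consecutive starved times 2 of 6 were lower than WT and 1 was higher, beside 19.8% and 20.5% of all genes. The other 3 were called at none. The elp2 average was 5012 in WT, 3504 at time 0 and 2476, 2306, 2393, 2401, 2461 and 2679 over the course. It was 2.17-fold below WT at 8 h and 1.87-fold below it at 48 h, where it was no longer called. The elp3 average was 1533 in WT, 2413 at time 0 and between 1876 and 2387 later.

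Within the ring, elp5 and elp6 diverged. The elp5 average was 381 in WT, 771 at time 0 and 690, 767, 1013, 1305, 1305 and 1248 over the course, and was 3.27-fold above WT at 48 h. The elp6 average was 1428 in WT, 921 at time 0 and 798, 662, 641, 612, 593 and 602, and was 2.37-fold below WT at 48 h. The elp4 average was 701 in WT and between 883 and 1087 in pho7Δ. Per length, elp5 stood at 0.19 times elp6 in WT, 0.58 times at time 0 and 1.45 times at 48 h. For elp5 and elp6 a large share of the difference from WT was present before starvation, with log2 ratios of 1.02 and -0.63 at time 0 beside 1.71 and -1.25 at 48 h.

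Tit1 adds the isopentenyl group to the adenosine beside the anticodon. The tit1 average was 2826 in WT and 975 in pho7Δ at time 0, followed by 842, 696, 750, 673, 689 and 715. It was the lowest of the 40 genes relative to WT in every pho7Δ group, and most of that difference was already there before starvation, 2.90-fold at time 0 beside 3.95-fold at 48 h. The step within pho7Δ was 1.36-fold from 0 to 48 h and was not called. The exons of tit1 lie entirely opposite wdr70, whose average was 1459 in WT, 867 at time 0 and 707 at 48 h. The gene ats1, outside the naming rule, showed the same kind of step, with an average of 3478 in WT, 1046 at time 0 and between 935 and 991 afterwards. In budding yeast Ats1 is an Elongator regulator.

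Wybutosine is built from methylguanosine in the anticodon loop of phenylalanine tRNA by Trm5, Tyw1, Trm12 and Tyw3 in turn, with a further enzyme after them. Of these 4 genes, trm12 was called lower than WT, tyw3 higher, and trm5 and tyw1 at no starved time. The tyw1 average was 4861 in WT, 4260 at time 0 and 2841, 2596, 2731, 2952, 3118 and 3184 afterwards, at most 1.87-fold below WT. The tyw3 average was 362 in WT, 487 at time 0 and 571, 625, 742, 774, 833 and 802. It was 2.21-fold above WT at 48 h. Per length, tyw1 was the highest of the 40 genes in WT and tyw3 the lowest, and their ratio, tyw3 to tyw1, was 0.09 in WT and 0.31 at 48 h. The exons of tyw3 lie entirely opposite the kinetochore gene mal2, whose average was 603 in WT, 1097 at time 0, 1561 at 8 h and 926 at 48 h.

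Overlap with genes on the other strand is common in this family and bears on the counts, since no source used here states which strand option was set for the read counting. In the ASM294v3 annotation, 13 of 40 members lie opposite other genes over 50% or more of their exon length and 15 lie opposite none. Over all protein-coding genes, 2427 lie opposite none, 1578 over less than 50%, 646 over 50% to under 95% and 459 over 95% or more. Of these 459 genes, 458 had averages above 0. The median level of the 459 was 1167, beside 1647 for the genes with no overlap. Reads of covered genes were therefore not discarded as a class. The share of reads of a covered member that could come from the other strand was not tested. The partners did not share one pattern. The antisense RNA of pus2, which covers 88.0% of it, had an average of 448 in WT, 163 at 4 h and 922 at 24 h, so that it was low when pus2 was low and was above pus2 from 24 h on. The antisense RNA at trm44 went from 235 in WT to 3197 at 48 h, while trm44 went from 3342 to 1773. The median log2 ratio of the 27 members with less overlap was -0.81 at 8 h. Of these, 3 were higher than WT at 2 or more consecutive times (elp5, tad2 and trm7), beside 20.5% of all genes.

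**Figure D4:**
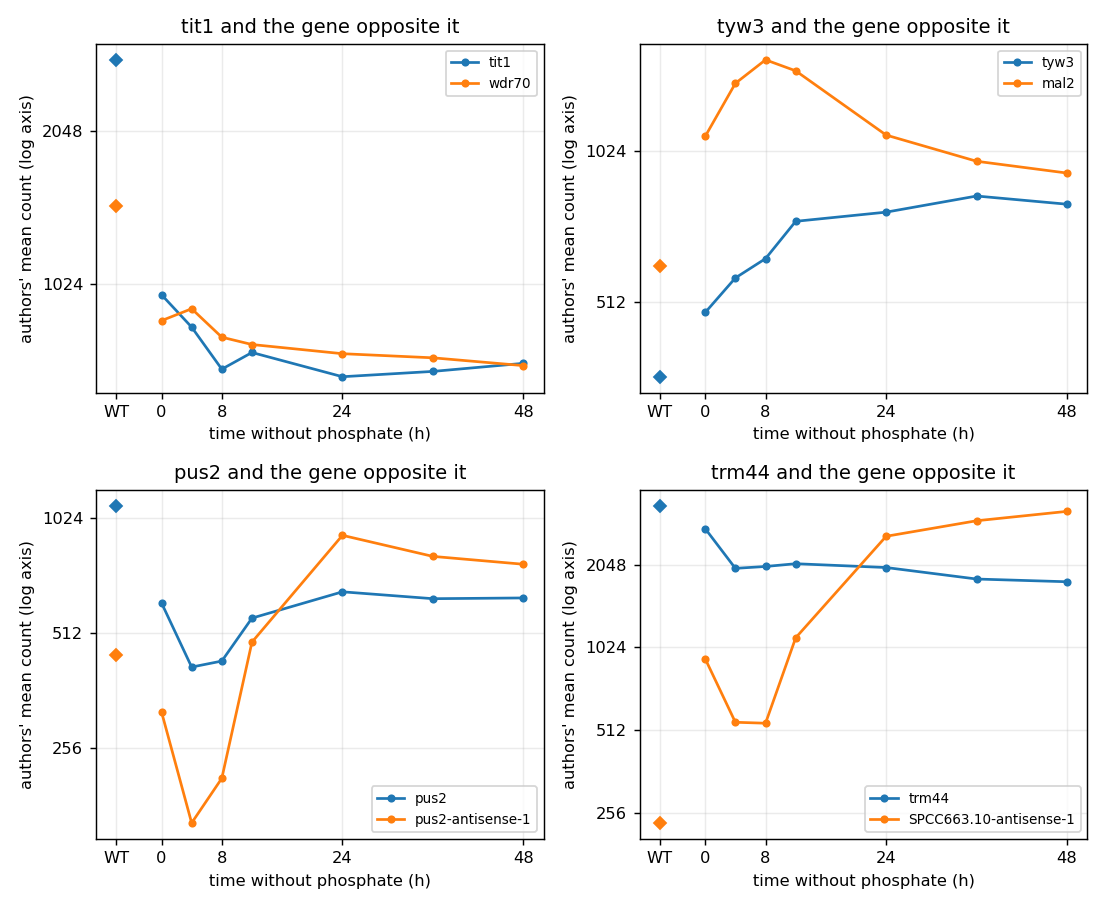
Averages (log axis) of 4 modification genes and of the gene on the opposite strand, in WT at time 0 (diamonds) and along the pho7Δ course (lines). The pus2 antisense RNA is lowest at 4 h and highest at 24 h, and the antisense RNA at trm44 exceeds trm44 from 24 h on.

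Modification genes that carry other names formed a list of 26 genes, with several mitochondrial enzymes among them. Against WT, 6 of these were lower and 0 higher at 8 h, and 4 were lower and 0 higher at 48 h. The lower genes made up 23.1% and 15.4% of the list, beside 15.1% and 17.4% of all genes. Of all genes, 16.6% and 17.7% were higher at these times. The median log2 ratio was -0.19 at 8 h and -0.07 at 48 h. The lowest at 48 h were ats1 with a log2 ratio of -1.84, rtt10 with -1.77 and gcd10, a subunit of the 1-methyladenosine enzyme, with -1.32. The partner of gcd10, the catalytic subunit gene cpd1, had a log2 ratio of -0.57. Genes of the KEOPS complex, which makes threonylcarbamoyladenosine, were not called at 48 h, with log2 ratios of 0.64 for kae1, 0.76 for bud32, 0.91 for cgi121 and -0.69 for pcc1. Earlier, pcc1 was called lower than WT, with log2 ratios of -1.32 at time 0, -1.71 at 4 h, -1.49 at 8 h and -1.19 at 12 h.

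A second list held 24 genes taken by symbol for tRNA trimming, splicing, CCA addition and export. At 8 h, 4 of these were lower than WT and 1 higher, and at 48 h 7 were lower and 1 higher. The lower genes made up 16.7% and 29.2% of the list, beside 15.1% and 17.4% of all genes, and the higher gene 4.17%, beside 16.6% and 17.7%. The 7 lower genes were trl1, the tRNA splicing ligase, cca2, sla1, pop100, rmp1, los1 and msn5. The higher gene was trz1, the nuclear tRNase Z that trims the 3′ end, with an average of 750 in WT, 1652 at time 0 and 2815 at 48 h. Its mitochondrial counterpart trz2 was low at 8 h, with 408 beside 1227 in WT, and was 987 at 48 h.

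The 34 aminoacyl-tRNA synthetase genes had a median log2 ratio of 0.23 at time 0, -0.20 at 8 h and -0.61 at 48 h. At 48 h, 9 were lower (26.5%, beside 17.4% of all genes) and 1 was higher (2.94%, beside 17.7%). The 52 genes named utp, nop or rrp were taken as ribosome biogenesis genes by symbol alone, with no check of the product. They had a median of 0.04 at time 0, -0.80 at 8 h and -0.76 at 48 h. At 8 h, 21 were lower (40.4%, beside 15.1% of all genes) and 0 were higher (beside 16.6%). Relative to WT, the median of the modification genes was thus low by 8 h and flat after it, as that of ribosome biogenesis was. The synthetase median reached its low later, and that of the trimming and splicing list was -0.55 at 8 h and -0.33 at 48 h. The contrast at 8 h depended on the reference. Against pho7Δ at time 0, the synthetase median was -0.47 at 8 h and -0.73 at 48 h. The members were then at -0.51 and -0.42, and the ribosome biogenesis genes at -0.87 and -0.88. All comparisons with one reference shared its average, and no test of a difference between lists was made.

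**Figure D5:**
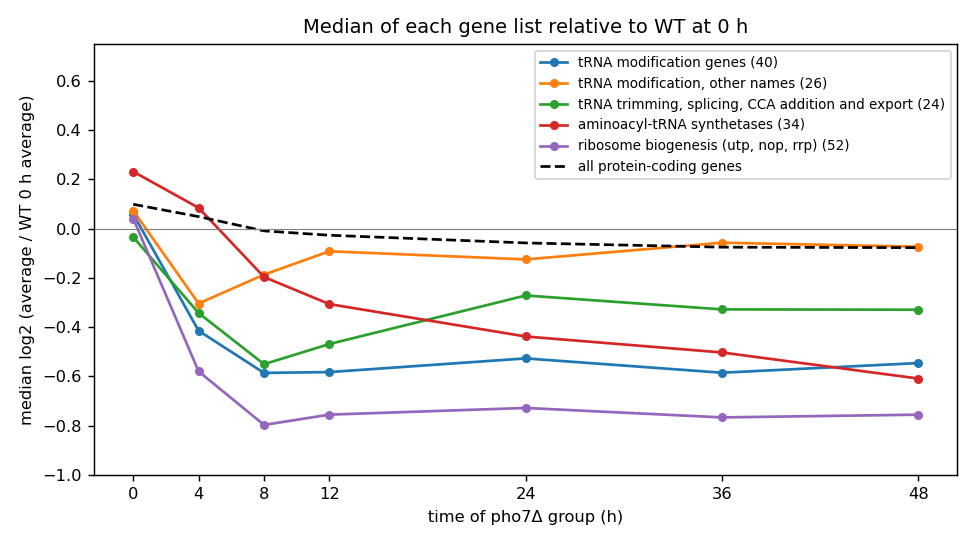
Median log2 ratio to WT at time 0 for the 40 modification genes, 4 other gene lists and all protein-coding genes in each pho7Δ group, with the number of genes in parentheses. The modification genes are at -0.59 at 8 h and -0.55 at 48 h, and the ribosome biogenesis genes lie below them from 4 h on.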

How the data were processed

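The study's methods describe poly(A)+ libraries from a strand-marking kit, read as pairs, aligned with HISAT2 2.1.0 and counted over annotated exons with HTSeq 0.10.0 (versions from the submitters' processing notes) on ASM294v2. The authors normalized the counts with DESeq2 and deposited, per gene and group, a mean normalized read count, treated here as a signal that is never negative. The deposited tables also hold the authors' own comparisons (overall mean, fold changes and p-values), which were not used. The sums over protein-coding genes differ between groups by at most 0.19 on the log2 scale.

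Ratios were taken between averages. A call needs 2-fold and an average of 100, after the study's limits. Values per library were not used here, so edgeR was not run and no test was made. Members called at 2 or more consecutive starved times or at time 0, the flattest and the widest member, and partners of called members are given in every group; other members are given by range. The values of 1 member, which counts in all totals, are not reported here. The members and lists were chosen with earlier results of these data known. In the lists, mto1, pop1, pop2 and pop3 were left out because their product names another protein. The utp, nop and rrp genes were not screened in this way. Gene length and overlap came from the RefSeq annotation of ASM294v3, which matched 6834 of 6987 rows and all 40 members. It is not the build of the files, so no coordinates or sequences are given, and the planned description of promoters and proteins was not made. Python 3, numpy and pandas were used. Alternatives were another scaling, centring, minimum, pseudocount and fold, and leaving out members with large overlaps.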

Additional observations from a re-analysis of the deposited data

How the results depend on the processing

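No paired analysis was possible because the files used here hold group averages only, and for the same reason leaving out replicates was not run. With no minimum or a minimum of 300, every count and median stayed the same. This could not come out otherwise, since the larger average of every comparison was above 300 for all 40 members. Scaling to equal sums gave 2 lower and 0 higher members at time 0, and medians of -0.11, -0.60 and -0.72 at 0, 4 and 8 h against WT. It gave 9, 15 and 12 lower at 4, 8 and 12 h, and 3 and 4 higher at 8 and 12 h. At consecutive times 13 were lower and 5 higher, as before scaling. Against pho7Δ at time 0, scaling gave 5 lower at 8 h, and 4 lower with a median of -0.28 at 48 h. Centring on the median gene gave 0 higher members at time 0 and 8 lower than WT at 4 h. It gave 11, 11 and 10 lower and 6 higher at 24, 36 and 48 h. At consecutive times 13 were lower and 6 higher. Against pho7Δ at time 0, centring gave 5 lower at 8 h, and 4 lower with a median of -0.30 at 48 h. A pseudocount of 10 gave 1 higher member at time 0 and 3 higher at 8 h.

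Without the 13 members opposite other genes over 50% or more of their length, 0 were lower at time 0. Of the 27 left, 4, 9, 9, 9, 9 and 8 were lower than WT from 4 to 48 h, and 9 at consecutive times. Higher than WT were 1 at 4 h, 3 at each of 8, 12, 24, 36 and 48 h, and 3 at consecutive times. Medians were -0.53 and -0.81 at 4 and 8 h against WT and -0.65 at 8 h against pho7Δ at time 0, where 1 was higher at 8 h and 1 at 48 h. The fewer genes counted account for part of this.

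A fold of 1.5 gave 5 lower and 8 higher at time 0, and 18 and 5 at 4 h. It gave 20 lower and 5 higher at 8 and 12 h, and 18 and 9 at 24 h. At 36 and 48 h it gave 20 and 9, and at consecutive times 21 and 9. Against pho7Δ at time 0 it gave 11 lower and 2 higher at 4 h, 18 lower at 8 h, and 15 and 5 at 48 h. A fold of 2.5 gave 0 higher at time 0, 2, 4, 2, 4, 4 and 3 lower from 4 to 48 h, 3 higher at 36 and 48 h, and 5 lower at consecutive times. Against pho7Δ at time 0 it gave 0 lower at 4 h, 1 lower and 0 higher at 8 h, and 3 and 1 at 48 h. Called at all 6 times were 4 lower and 2 higher members. The shares of all protein-coding genes under these alternative limits are not given here, so these counts describe the members only and cannot be set beside a background. Many members thus lie near the 2-fold limit, and with no replicate spread the counts near it cannot be given an error.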
